A study of Mus musculus with 7 samples.

Results

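The genes examined here build and control the DNA replication machinery at the transition from G1 into S phase. They comprise 41 genes that were listed by symbol and found through the gene symbols of the array's platform annotation. Probes were present for 38 of the 41, with 61 probes in all, and none carried the symbol Gins1, Gins2 or Rfc3, either by name or by gene identifier. The 38 are part of 16593 genes with a named probe. Signal above background on at least 2 arrays was found for 29 of them, which are called the measured genes.

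Before a cell copies its genome, the origin recognition complex, Cdc6 and Cdt1 load the ring of Mcm2 to Mcm7 proteins onto origins, and Cdc45 and the GINS complex turn that ring into an active helicase. Primase and the replicative polymerases then copy both strands behind the sliding clamp Pcna, while nucleotide-making enzymes supply the building blocks. Many of these genes are transcribed together from E2F-bound promoters as cells leave G1, and proliferating leukemic progenitors are known to express them at high levels.

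Mouse cells with the cell type label "leukemia stem cell" (LSCe in the protocol) were freshly isolated and kept in suspension for 6 h, at 250000 cells per well. BRD7116, a small molecule known here by its code name alone, was given at 5 µM in 0.2% DMSO and assayed on 5 arrays, against 2 arrays of cells given 0.2% DMSO alone. The sources used here name no strain, driving lesion of the leukemia or number of animals, and nothing says that replicates were separate cultures, so the p-values measure only a spread between samples that may be technical. The single comparison asks which transcripts differed after exposure to the compound.

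The labelled cell type was checked by its markers. Of 9 myeloid progenitor markers with a probe, Mpo, Elane, Prtn3, Ctsg, Hoxa9, Meis1 and Cebpe were detected on all 7 arrays, while Cd34 was detected on none. Of the markers of other cell types with a probe, 0 of 4 for T cells, 2 of 4 for B cells, 1 of 3 for macrophages, 1 of 5 for stromal cells and 1 of 3 for red cells were detected on any array. Of the B cell markers, 1 had signal above background on at least 2 arrays. Its linear level was 43 to 128 in BRD7116 arrays and 60 to 93 in DMSO arrays. The same held for 1 macrophage marker, at 43 to 71 in BRD7116 arrays and 61 to 62 in DMSO arrays. Cd79a, Ms4a1, Col1a1, Col1a2, Col3a1, Alas2 and Slc4a1 were detected on no array. The only marker of another cell type detected on all 7 arrays was the red cell gene Hba-a1, whose level on the linear scale ranged from 136 to 210 in BRD7116 arrays and from 312 to 353 in DMSO arrays. The part of these markers in the results below was not tested.

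The 7 arrays lay on 3 chips, each measuring 25697 probes. Chip A, with BRD7116 replicate 1 and DMSO replicate 2, was dim: 4585 and 4412 probes were detected on these arrays, against 6749 to 8451 on the others. Chip B held BRD7116 replicate 2 and DMSO replicate 1, and chip C held BRD7116 replicates 3, 4 and 5. Of the 29 measured genes, 24 were detected on the BRD7116 array of chip A and 23 on its DMSO array, against 28 or 29 on each other array. Differences of the replication genes with errors are therefore also given within chips A and B, where 1 BRD7116 array met 1 DMSO array.

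A feature that the gene list did not use was found in the promoters. RefSeq promoter windows (build GRCm38.p6, 250 bases before to 50 bases from the start of each gene) were available for 34 of the 41 genes, and both strands were searched for the 8-letter E2F sequences TTTCCCGC, TTTGGCGC, TTTCGCGC and TTTGCCGC. At least 1 of them was present in 12 of the 34 genes, or 35.3%, against 2.61% of all 27025 genes in the table. CCAAT, the core of the NF-Y sequence, was present in 64.7% of the 34 and in 41.1% of all genes, and TTTGAA, the core of the cell cycle homology region of mitotic promoters, in 8.82% and 20.2%. A match describes these letters only, and their absence from a window says nothing of the factor.

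For each measured gene with E2F letters, 1 stretch is shown, because it is the sequence element that these genes share (GRCm38.p6; Mcm3, Mcm6 and Mcm7 hold a further match). Capitals mark the match, and where the capitals are longer than 8 letters, matches on opposite strands overlap. Mcm7, Lig1 and Uhrf1 have more than 1 promoter window, of which only 1 held matches, and the start named is that of this window. Each stretch is read 5′ to 3′ on the strand of its gene.
Cdc6, chr11:98908003-98908030, plus strand, upstream of the start: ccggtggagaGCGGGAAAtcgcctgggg
Cdt1, chr8:122568037-122568064, plus strand, downstream of the start: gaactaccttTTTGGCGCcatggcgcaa
Mcm3, chr1:20820276-20820303, minus strand, downstream of the start: aacttccgtgGCGGGAAAacttgggaag
Mcm5, chr8:75109346-75109377, plus strand, upstream of the start: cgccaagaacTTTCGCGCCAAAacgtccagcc
Mcm6, chr1:128359794-128359825, minus strand, upstream of the start: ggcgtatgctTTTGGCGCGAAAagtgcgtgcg
Mcm7, chr5:138172031-138172058, minus strand, upstream of the start: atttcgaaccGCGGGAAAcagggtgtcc
Lig1, chr7:13278842-13278869, plus strand, downstream of 1 of its annotated starts: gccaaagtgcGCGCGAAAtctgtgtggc
Pold1, chr7:44548766-44548786, minus strand, downstream of the start: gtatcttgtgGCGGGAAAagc
Uhrf1, chr17:56304118-56304145, plus strand, upstream of 1 of its annotated starts: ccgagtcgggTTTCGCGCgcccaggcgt

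Among the measured genes with a promoter window, 6 of the 9 with E2F letters had a higher mean level with BRD7116 than with DMSO, with a median log2 difference of 0.05 and a range of -0.31 to 0.76. Of the 16 without the letters, BRD7116 exceeded DMSO for 3 and was below it for 13, with a median of -0.16 (range -0.53 to 0.37). This split was made after the values were known and was not tested. Among the 6 higher genes with E2F letters, Cdc6, Mcm3, Mcm5 and Lig1 were lower within chip B (-0.24, -0.46, -0.14 and -0.21). There Cdt1 and Mcm7 were higher (0.53 and 0.26), but Mcm7 was lower within chip A (-0.94). All of the 6 but Cdt1 changed sign in some of the alternatives given below.

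No replication gene passed the test. In the fit across all 6969 genes and unnamed probes (limma, Benjamini-Hochberg adjustment, threshold 0.05), 0 were called, or 0%, and so 0 of the 29 measured genes were called, the smallest adjusted p among them being 0.658. The BRD7116 mean exceeded the DMSO mean for 10 of the 29 and was below it for 19 (65.5%), where 44.8% of all features tested had a lower mean. Their median log2 difference was -0.12, against 0.05 over all features tested. Under scaling of each array to a common median, the median of all features was 0.55. Relative to that median, 20 of the 29 lay above and 9 below, with a median of 0.08. Of the 22 detected on all 7 arrays, 16 (72.7%) had a lower mean and the median was -0.16. Over all 2714 features detected on all 7 arrays, 54.1% had a lower mean and the median was -0.03. In RNA from a cell population, fewer cells in S phase and less transcript per cell cannot be told apart.

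At an unadjusted p under 0.05 a single gene of the 29, Cdt1, was higher and a single gene, Mcm2, was lower, where 3.37% of all features were higher and 3.70% lower by that measure. All 5 BRD7116 arrays lay above both DMSO arrays for 1 gene (Cdt1), where the background was 5.75%, and below both for 2 genes (Mcm2 and Uhrf1), where it was 5.40%. Among the 29 these counts come to about the number that the background shares give. The following values are normalized log2 levels, and differences are BRD7116 minus DMSO on the same scale.

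**Figure D1:**
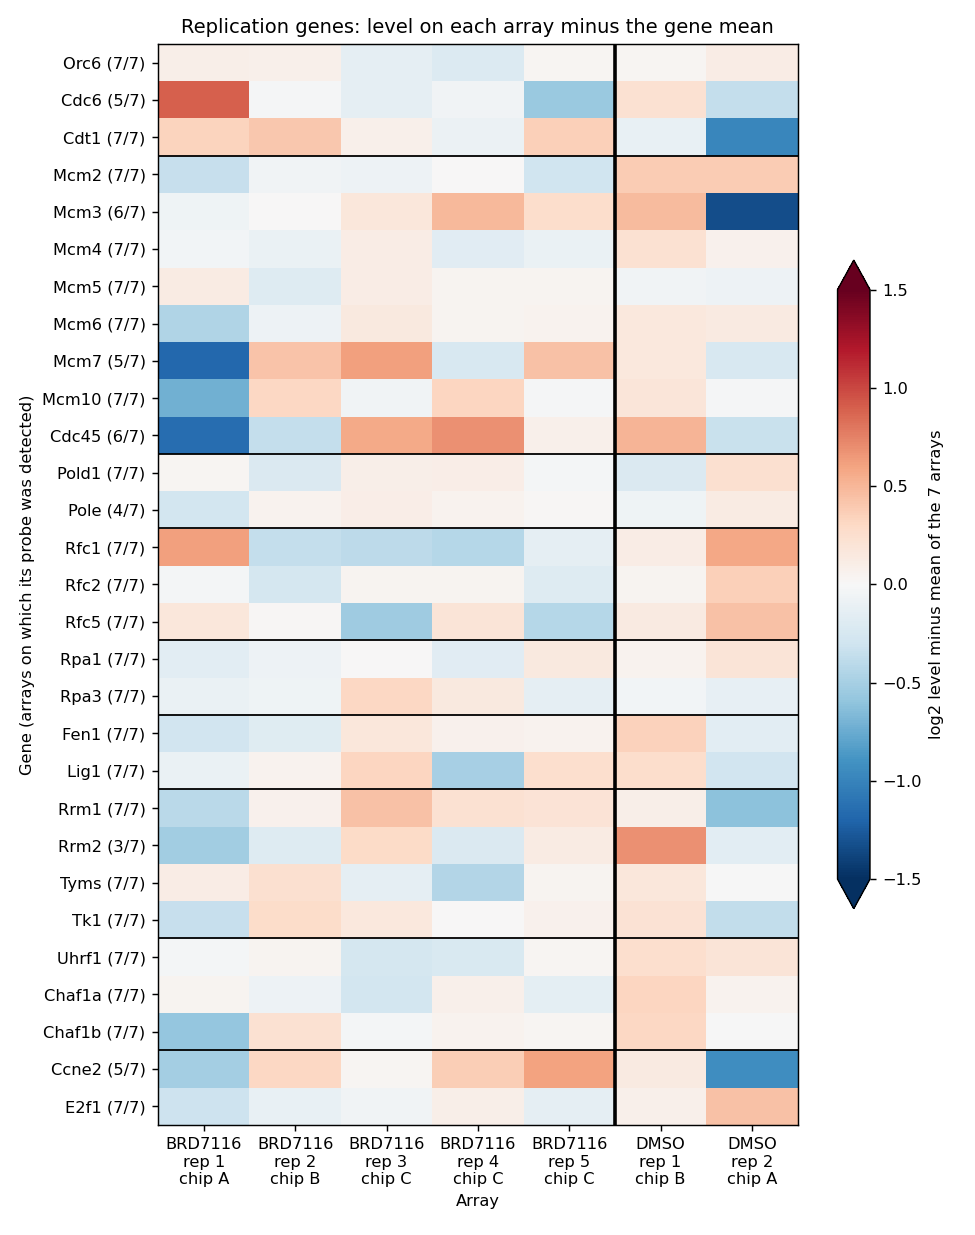
Level of each of the 29 measured genes (rows, grouped by role) on each of the 7 arrays (columns, the 5 BRD7116 arrays left of the 2 DMSO arrays), as the log2 level minus the gene's mean over the 7 arrays. Mcm2 and Uhrf1 are lower on all 5 BRD7116 arrays than on both DMSO arrays, and strong single deviations such as Mcm3 at 5.07 and Cdt1 at 6.45 lie on DMSO replicate 2, an array of chip A.

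Among the licensing factors, which prepare origins in G1, Cdt1 loads the Mcm ring together with Cdc6. Cdt1 levels were 7.77, 7.84, 7.51, 7.34 and 7.78 on the 5 BRD7116 arrays, against 7.31 and 6.45 on the DMSO arrays. All treated arrays were higher, but BRD7116 replicate 4 exceeded DMSO replicate 1 only narrowly, and the array of DMSO replicate 2 on the dim chip was far below the rest. The means were 7.65 ± 0.21 (SD, n = 5) with BRD7116 and 6.88 ± 0.61 (SD, n = 2) with DMSO, a 1.70-fold higher level (log2 difference 0.76, 95% interval 0.14 to 1.38, adjusted p = 0.658). The difference was 1.31 within chip A and 0.53 within chip B. Without DMSO replicate 2 the difference was 0.34, and with the authors' deposited processed values it was 0.30. With DMSO replicate 1 left out instead, the single control came from the dim chip. Cdt1 was then at 1.06 relative to the median of all features (0.12).

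Orc6, a subunit of the origin recognition complex, had 9.14, 9.12, 8.92, 8.85 and 9.08 with BRD7116, against 9.08 and 9.16 with DMSO. The groups overlapped, with a difference of -0.10 (95% interval -0.49 to 0.29) that was -0.03 within chip A and 0.04 within chip B. Cdc6, which recruits the Mcm ring, was detected on 4 BRD7116 arrays and 1 DMSO array, at 6.55, 5.64, 5.52, 5.60 and 5.10 with BRD7116, against 5.88 and 5.30 with DMSO. Its difference was 0.09 (95% interval -0.77 to 0.95), and it was 1.25 within chip A and -0.24 within chip B. The single array that stood high for Cdc6 was again on chip A. Orc1, which belongs to the same complex as Orc6, and Gmnn, which encodes geminin, the inhibitor of Cdt1, were detected on no array.

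The Mcm2 to Mcm7 genes encode the 6 subunits of the replicative helicase ring. They shared no direction: the BRD7116 mean was above the DMSO mean for 3 and below it for 3, with differences from -0.53 to 0.60. With median scaling, 1 of the 6 lay below the median of all features (0.55). Mcm2 had 8.08, 8.36, 8.34, 8.43 and 8.12 on the BRD7116 arrays, against 8.80 and 8.80 on the DMSO arrays. Every treated array was below both controls, by at least the gap between 8.43 and 8.80, and the controls of the dim chip and of chip B had the same level. Its means were 8.26 ± 0.16 (SD, n = 5) with BRD7116 and 8.80 ± 0.0019 (SD, n = 2) with DMSO, a 1.45-fold lower level (log2 difference -0.53, 95% interval -0.94 to -0.12, adjusted p = 0.658). The difference of Mcm2 was -0.72 within chip A and -0.44 within chip B, and with chip as a block the difference was -0.58 with an adjusted p of 0.366. Leaving out any 1 array gave -0.65 to -0.49, where the -0.65, without DMSO replicate 1, is relative to the median of all features (0.12). The authors' deposited processed values gave -0.31.

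**Figure D2:**
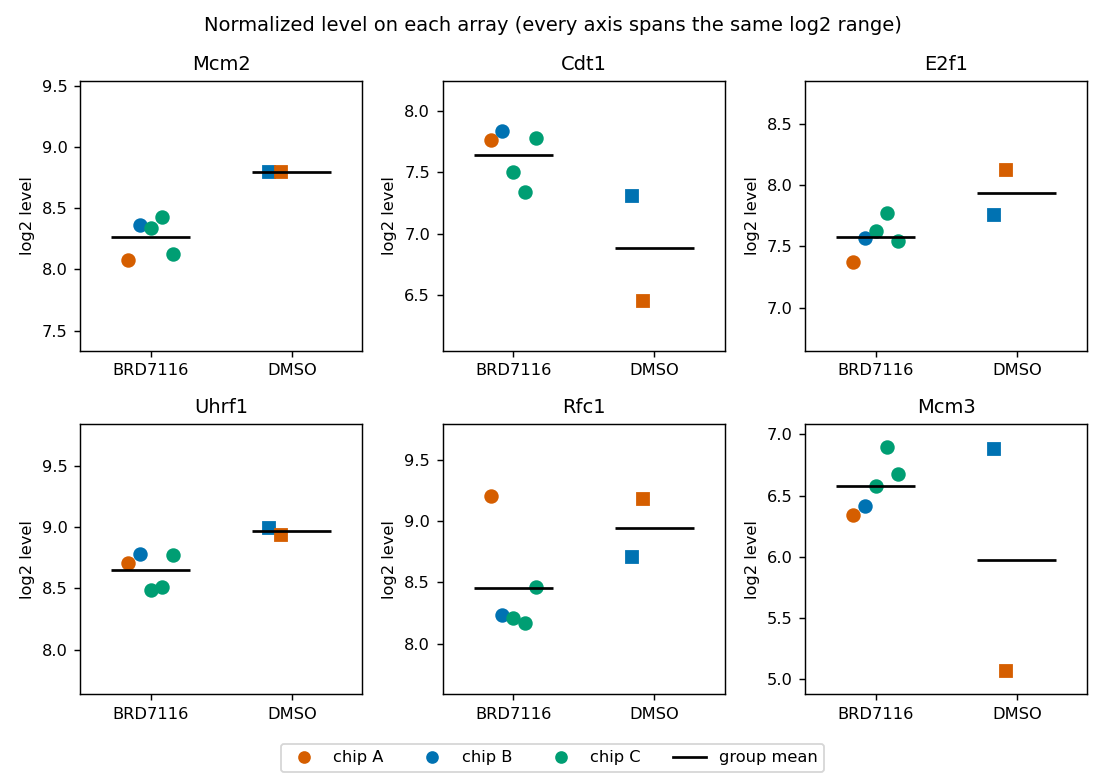
Normalized log2 levels of Mcm2, Cdt1, E2f1, Uhrf1, Rfc1 and Mcm3 on each array, with BRD7116 left of DMSO, points coloured by chip and bars at the group means. The 5 BRD7116 points of Mcm2 (8.08 to 8.43) and of Uhrf1 (8.48 to 8.78) lie below both DMSO points, those of Cdt1 lie above, and the low DMSO point of Mcm3 at 5.07 belongs to chip A.

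The promoter windows of Mcm2 and Cdt1 are printed because these were the only replication genes with an unadjusted p under 0.05, in opposite directions. That of Mcm2 (chr6:88898731-88899030, minus strand, GRCm38.p6) holds CCAAT on the opposite strand and TTTGAA but none of the 4 E2F sequences, and that of Cdt1 (chr8:122567765-122568064, plus strand, GRCm38.p6) holds TTTGGCGC just after the start and neither of the others. Capitals mark these matches.
Mcm2: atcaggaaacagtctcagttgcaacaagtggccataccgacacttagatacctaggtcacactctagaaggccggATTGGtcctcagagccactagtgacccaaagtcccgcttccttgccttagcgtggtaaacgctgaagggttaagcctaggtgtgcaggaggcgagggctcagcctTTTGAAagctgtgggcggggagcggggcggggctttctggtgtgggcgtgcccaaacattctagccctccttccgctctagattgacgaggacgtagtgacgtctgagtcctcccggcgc
Cdt1: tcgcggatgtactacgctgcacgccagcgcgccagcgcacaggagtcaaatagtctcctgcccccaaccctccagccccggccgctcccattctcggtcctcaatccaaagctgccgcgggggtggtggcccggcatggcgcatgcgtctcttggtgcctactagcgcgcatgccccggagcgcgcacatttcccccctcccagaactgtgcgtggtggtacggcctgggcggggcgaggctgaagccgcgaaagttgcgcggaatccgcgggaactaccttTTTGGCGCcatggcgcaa

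The other subunits of the ring varied around their controls. Mcm4 had 10.29, 10.23, 10.44, 10.16 and 10.22 with BRD7116, against 10.56 and 10.40 with DMSO, and only BRD7116 replicate 3 exceeded a control. Its difference was -0.21 (95% interval -0.59 to 0.18), with -0.11 within chip A and -0.32 within chip B. Mcm5 had 10.02, 9.71, 10.01, 9.95 and 9.95 with BRD7116, against 9.85 and 9.82 with DMSO. For Mcm5 the 4 higher treated arrays exceeded both controls and BRD7116 replicate 2 was below them, so that the difference of 0.09 (95% interval -0.30 to 0.48) was 0.20 within chip A and -0.14 within chip B.

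Mcm3 had 6.34, 6.41, 6.57, 6.89 and 6.68 with BRD7116, against 6.88 and 5.07 with DMSO. The controls lay at either end of the treated arrays, except that BRD7116 replicate 4 was just above the higher one, and Mcm3 was not detected on the dim control array. The difference was 0.60 (95% interval -0.39 to 1.60), with 1.27 within chip A and -0.46 within chip B. It was 1.40 relative to the median of all features (0.12) without DMSO replicate 1, and it turned to -0.31 without DMSO replicate 2. Mcm7 was detected on 4 BRD7116 arrays and 1 DMSO array, at 4.94, 6.53, 6.73, 5.87 and 6.56 with BRD7116, against 6.27 and 5.88 with DMSO. Its difference of 0.05 (95% interval -1.04 to 1.15) was the least certain of the ring, with -0.94 within chip A and 0.26 within chip B.

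Mcm6 was measured by 3 probes detected on all 7 arrays, and these disagreed. The probe with the highest mean gave 7.96, 8.34, 8.57, 8.45 and 8.46 with BRD7116, against 8.57 and 8.54 with DMSO, a difference of -0.20 (95% interval -0.68 to 0.28) that was -0.58 within chip A and -0.23 within chip B. The second probe differed by -0.40 and the third by 0.89. The third owed its value to DMSO replicate 2, where it read 6.67 against 8.33 in DMSO replicate 1, and within chip B its difference was 0.00070. A direction for Mcm6 therefore depended on the probe.

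Mcm10, Cdc45 and the GINS complex act when the loaded ring is turned into a moving helicase. Mcm10 had 7.45, 8.48, 8.11, 8.49 and 8.14 with BRD7116, against 8.35 and 8.15 with DMSO, a difference of -0.11 (95% interval -0.80 to 0.57) that was -0.70 within chip A and 0.13 within chip B. Another probe of Mcm10, detected on 5 arrays, differed by 0.25, with -0.24 within chip A and -0.40 within chip B. Cdc45 had 6.11, 6.90, 7.83, 7.95 and 7.33 with BRD7116, against 7.76 and 6.92 with DMSO. Cdc45 overlapped widely over all arrays, with a difference of -0.12 (95% interval -1.28 to 1.05), but the treated array was the lower of the pair on both chips, with -0.81 in chip A and -0.86 in chip B. With chip as a block Cdc45 had -0.84 (standard error 0.24, adjusted p = 0.366), which did not pass. It was detected on 4 BRD7116 arrays and on both DMSO arrays.

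**Figure D3:**
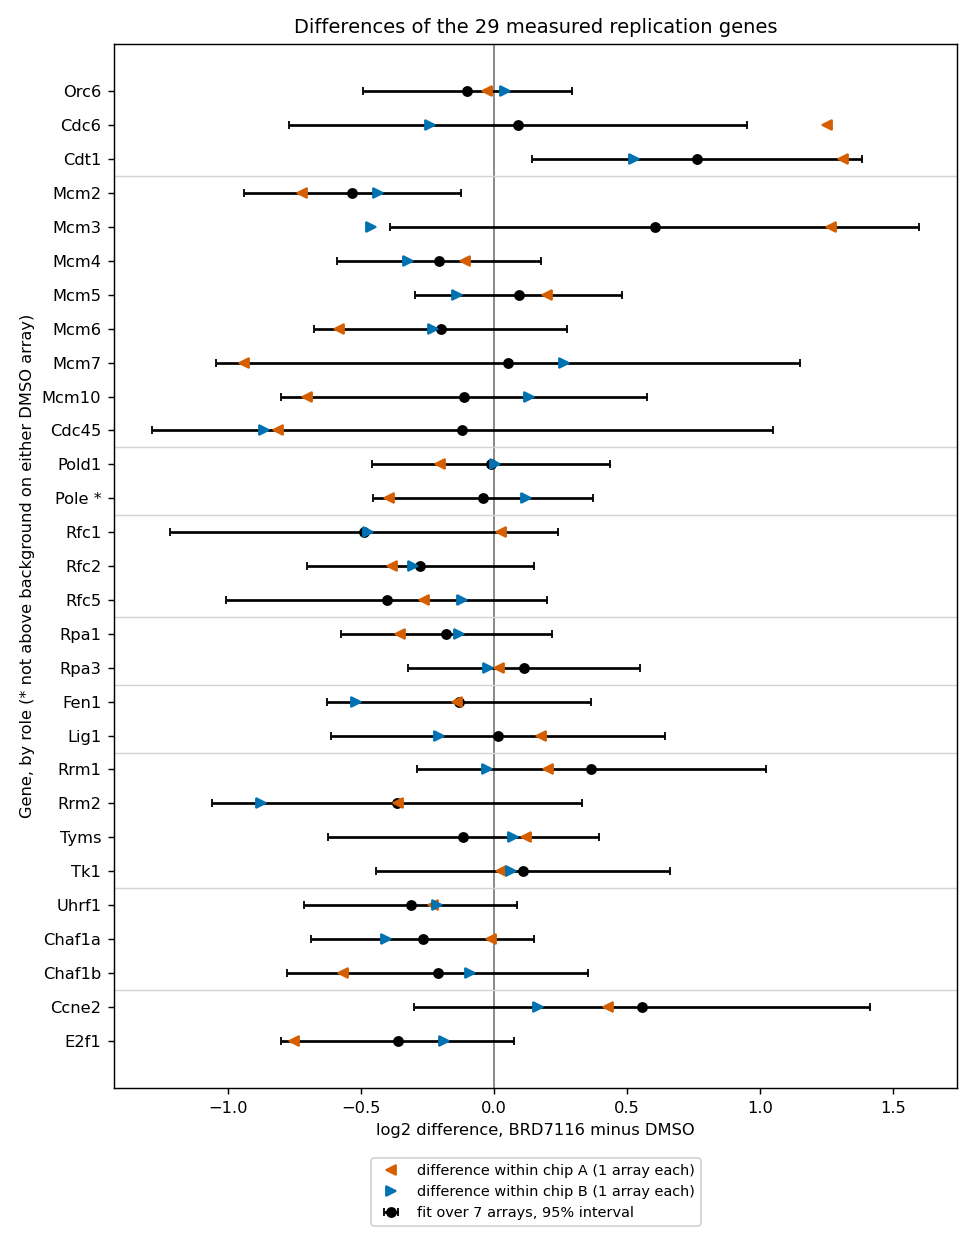
Log2 difference, BRD7116 minus DMSO, of the 29 measured genes by role, as the fit over 7 arrays with its 95% interval (black) and as the difference of 1 array each within chip A and within chip B (triangles). The intervals of Mcm2 (-0.94 to -0.12) and Cdt1 (0.14 to 1.38) are the only ones that leave out 0 before adjustment, and the triangles of Mcm3 and Cdc6 lie on opposite sides of 0.

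Of the polymerase and primase genes, Pold1, the catalytic subunit of the lagging strand polymerase delta, had 7.66, 7.41, 7.72, 7.73 and 7.60 with BRD7116, against 7.41 and 7.86 with DMSO. The controls enclosed the treated arrays, and the difference was -0.01 (95% interval -0.46 to 0.44), with -0.20 within chip A and 0.0044 within chip B. Pole, the catalytic subunit of the leading strand polymerase epsilon, was detected on 4 BRD7116 arrays and not well above background on either DMSO array, which gave no bound above 1. Pola1, of the primase-bound polymerase alpha, was detected on a single array, and the primase gene Prim1 on none.

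Replication factor C loads the sliding clamp Pcna onto primed DNA. All 3 of its measured subunits had a lower mean with BRD7116. Rfc1 had 9.21, 8.23, 8.21, 8.17 and 8.46 with BRD7116, against 8.71 and 9.18 with DMSO. Its treated arrays of chips B and C were below both controls, and the treated array of chip A stood with its chip's control, so that the difference of -0.49 (95% interval -1.22 to 0.24) was 0.03 within chip A and -0.47 within chip B. Rfc2 had 9.64, 9.41, 9.72, 9.72 and 9.48 with BRD7116, against 9.72 and 10.03 with DMSO. This was a difference of -0.28 (95% interval -0.70 to 0.15), with -0.38 within chip A and -0.30 within chip B.

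Rfc5 had 7.997, 7.84, 7.29, 8.01 and 7.39 with BRD7116, against 7.96 and 8.26 with DMSO. Replicates 3 and 5 of BRD7116 were lowest, and the difference was -0.40 (95% interval -1.01 to 0.20), with -0.26 within chip A and -0.12 within chip B. The adjusted p was 0.684 for each of the 3 subunits. Rfc4, a further subunit, was detected on 1 array, as was Pcna itself, whose only probe reached its lowest detection p of 0.00877 on that array, so these data give no level for the clamp.

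Of the single-strand binding protein RPA, Rpa1 is the large and Rpa3 the small subunit. Rpa1 had 10.08, 10.17, 10.24, 10.07 and 10.39 with BRD7116, against 10.30 and 10.44 with DMSO, and overlapped with a difference of -0.18 (95% interval -0.58 to 0.22), which was -0.35 within chip A and -0.13 within chip B. Rpa3 had 9.66, 9.70, 10.07, 9.91 and 9.63 with BRD7116, against 9.72 and 9.65 with DMSO, and overlapped with a difference of 0.11 (95% interval -0.32 to 0.55), which was 0.02 within chip A and -0.02 within chip B. Rpa2 was detected on 1 array.

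Fen1, the nuclease that trims Okazaki fragments, and Lig1, the ligase that joins them, each overlapped between the groups. Fen1 had 8.61, 8.72, 9.06, 8.96 and 8.95 with BRD7116, against 9.24 and 8.74 with DMSO, a difference of -0.13 (95% interval -0.63 to 0.36). Within chip B the difference of Fen1 was -0.52 and within chip A -0.14. Lig1 had 6.65, 6.80, 7.07, 6.25 and 6.997 with BRD7116, against 7.01 and 6.47 with DMSO, a difference of 0.01 (95% interval -0.61 to 0.64) that was 0.18 within chip A and -0.21 within chip B. Lig1 has 4 probes, and the others that were detected, on 4 and 5 arrays, differed by -0.31 and 0.12.

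**Figure D4:**
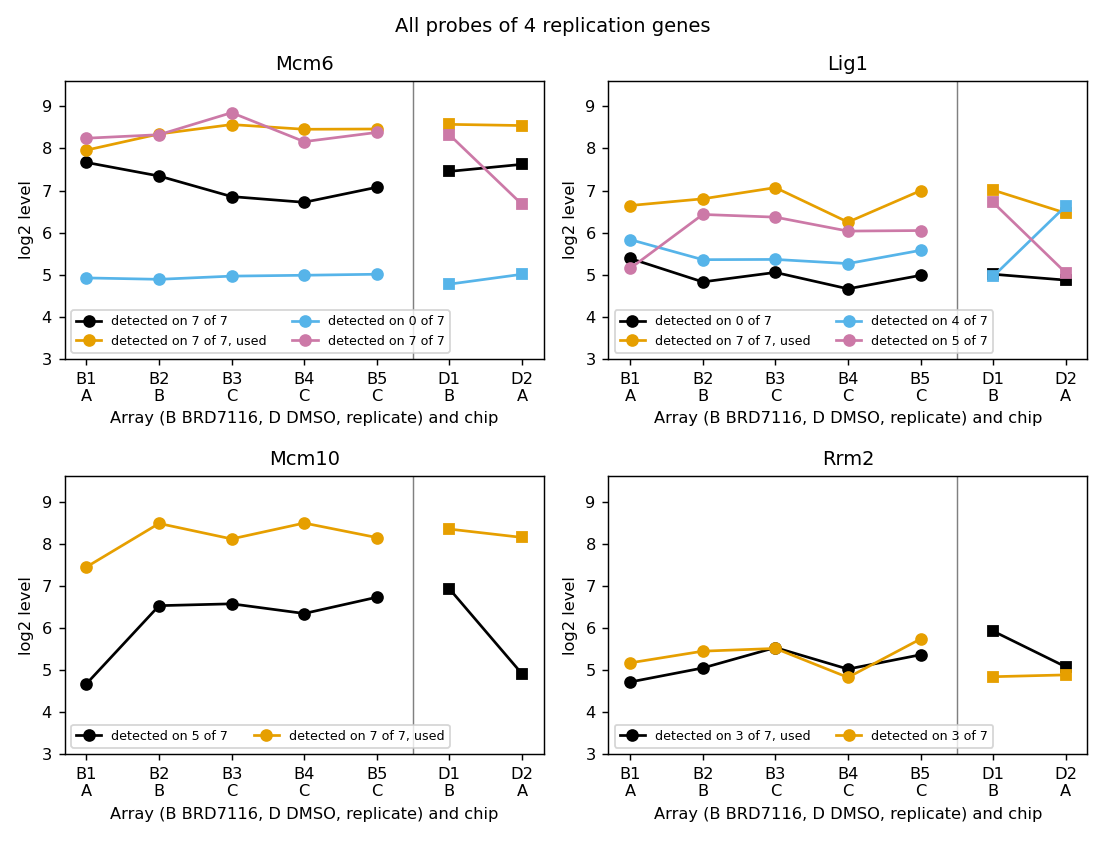
Normalized log2 levels of every probe of Mcm6, Lig1, Mcm10 and Rrm2 on the 5 BRD7116 arrays (circles, left) and the 2 DMSO arrays (squares, right), with the chip under each array and the number of arrays on which the probe was detected in the legend. One Mcm6 probe drops to 6.67 on DMSO replicate 2, where the other detected probes of the gene show no such drop, and the 2 Rrm2 probes differ in opposite directions between the groups.

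Nucleotide supply was represented by ribonucleotide reductase, thymidylate synthase and thymidine kinase. Rrm1, the large reductase subunit, had 7.44, 7.91, 8.28, 8.07 and 8.05 with BRD7116, against 7.94 and 7.23 with DMSO. Each group held its lowest value on chip A, and the difference was 0.37 (95% interval -0.29 to 1.02), with 0.20 within chip A and -0.03 within chip B. The 2 probes of Rrm2, the small and S phase-limited subunit, were each detected on 3 arrays and gave -0.36 and 0.48. They disagreed in sign within both chips as well.

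Tyms, which makes thymidylate from deoxyuridylate, had 9.11, 9.24, 8.86, 8.56 and 9.04 with BRD7116, against 9.17 and 8.98 with DMSO, a difference of -0.12 (95% interval -0.62 to 0.39) that was 0.12 within chip A and 0.07 within chip B. Tk1, which salvages thymidine, had 8.20, 8.82, 8.69, 8.55 and 8.60 with BRD7116, against 8.75 and 8.17 with DMSO, a difference of 0.11 (95% interval -0.44 to 0.66) that was 0.03 within chip A and 0.06 within chip B. Both genes overlapped between the groups. Another probe of Tk1, detected on 2 arrays, differed by -0.285.

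All 3 measured chromatin genes had a BRD7116 mean below the DMSO mean, over the 7 arrays and within both chips. With median scaling, however, Chaf1a and Chaf1b were at 0.04 and 0.08 relative to the median of all features (0.55). Uhrf1, which recognizes hemimethylated DNA and recruits the maintenance methyltransferase, had 8.71, 8.78, 8.48, 8.52 and 8.77 with BRD7116, against 8.996 and 8.94 with DMSO. Every treated array was below both controls. The means were 8.65 ± 0.14 (SD, n = 5) with BRD7116 and 8.97 ± 0.0423 (SD, n = 2) with DMSO, a 1.24-fold lower level (log2 difference -0.31, 95% interval -0.71 to 0.09, adjusted p = 0.666). The difference was -0.23 within chip A and -0.21 within chip B.

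Chaf1a and Chaf1b are the subunits of CAF-1, which places histones on new DNA. Chaf1a had 8.23, 8.10, 7.91, 8.25 and 8.04 with BRD7116, against 8.51 and 8.24 with DMSO, and all but BRD7116 replicate 4 were below both controls. Its difference was -0.27 (95% interval -0.69 to 0.15), with -0.01 within chip A and -0.41 within chip B. Chaf1b had 6.65, 7.45, 7.20, 7.28 and 7.25 with BRD7116, against 7.54 and 7.22 with DMSO, a difference of -0.21 (95% interval -0.78 to 0.36) that was -0.57 within chip A and -0.09 within chip B. Slbp, which binds the histone mRNA stem-loop, was detected on no array.

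Of the G1/S regulators, E2f1 is the transcription factor that activates many of the genes above. E2f1 had 7.37, 7.57, 7.63, 7.77 and 7.55 with BRD7116, against 7.75 and 8.12 with DMSO. Of the treated arrays only BRD7116 replicate 4 exceeded a control, and the means were 7.58 ± 0.14 (SD, n = 5) with BRD7116 and 7.94 ± 0.26 (SD, n = 2) with DMSO. The difference was -0.36 (95% interval -0.80 to 0.08, adjusted p = 0.665), with -0.75 within chip A and -0.19 within chip B. Ccne2, a cyclin partner of Cdk2, was detected on 4 BRD7116 arrays and 1 DMSO array, at 5.35, 6.16, 5.89, 6.22 and 6.46 with BRD7116, against 6.00 and 4.92 with DMSO. Its difference was 0.56 (95% interval -0.30 to 1.41), which was 0.43 within chip A, 0.16 within chip B and 0.02 without DMSO replicate 2. The other cyclin E gene, Ccne1, was detected on no array.

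The pairs on chips A and B share no array, so that they give separate readings of the comparison, each from 1 array per group. Of the 29 measured genes, 13 were lower with BRD7116 in both pairs, 4 were higher in both and 12 had opposite signs. Over all 6969 features the corresponding shares were 25.6% lower in both and 27.6% higher in both, against 44.8% and 13.8% of the 29. The 22 genes detected on all 7 arrays had 11 lower (50%) and 3 higher (13.6%) in both pairs, against 28.6% and 26.3% of all features so detected. Across the 29 genes the differences of the 2 chips had a Pearson correlation of 0.20, against 0.07 across all features. It was 0.50 across the 22 detected on all 7 arrays, against 0.15 across all features so detected, and 0.0098 across the other 7. These are descriptions across genes, which share the arrays and are not independent replicates. With chip as a block the median difference of the 29 genes was -0.21, against 0.01 over all features.

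**Figure D5:**
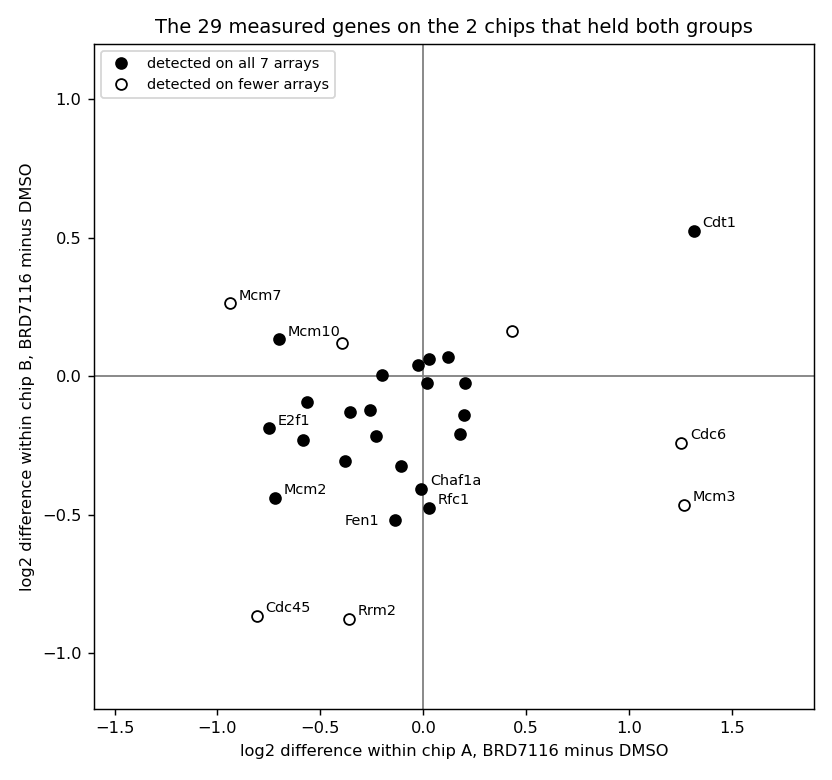
Log2 difference, BRD7116 minus DMSO, within chip A (horizontal) and within chip B (vertical) for the 29 measured genes, with filled points for genes detected on all 7 arrays. In the lower left lie the 13 genes that were lower in both pairs, among them Mcm2, E2f1 and Cdc45, while Cdt1 lies farthest to the upper right and Cdc6 and Mcm3 lie on opposite sides of 0 in the 2 chips.

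A list of 69 other replication and G1/S genes showed how the rest of the pathway behaved. Probes were present for 64 and 49 were measured, of which 0 were called in either direction. A higher mean with BRD7116 was found for 25 and a lower mean for 24, with a median log2 difference of 0.0034. Of the 19 detected on all 7 arrays, 13 (68.4%) had a lower mean and the median was -0.11. Over all features so detected, 54.1% had a lower mean and the median was -0.03. Means thus leaned lower among these other genes too, and slightly so over all features at the same level of detection. All 5 BRD7116 arrays lay above both controls for 0 of the 49 and below both for 3, where 5.75% and 5.40% of all features did so. At an unadjusted p under 0.05 in the same fit, 1 of the 49 was higher and 4 were lower, where 3.37% and 3.70% of all features were.

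By function, the 13 measured genes of polymerases and the fork had a median of 0.42, but it was -0.01 within chip A, 0.08 within chip B, 0.15 with chip as a block and 0.12 with the authors' deposited processed values. The median was 0.09 for the 6 of nucleotide supply, -0.01 for the 18 of G1/S control, -0.09 for the 8 of origin recognition and firing, and -0.16 for the 4 of chromatin copying.

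The 6 of these genes with the highest mean level are given as examples. Cenpa, the centromeric histone H3 variant, differed by 0.12 (95% interval -0.32 to 0.55), and the D-type cyclin gene Ccnd3 by -0.13 (95% interval -0.60 to 0.33). Tipin, of the fork protection complex, differed by -0.09 (95% interval -0.55 to 0.36), and the S phase kinase gene Cdk2 by 0.13 (95% interval -0.39 to 0.65). Gins4, a subunit of the GINS complex, differed by -0.06 (95% interval -0.43 to 0.31), and Tfdp1, the dimerization partner of E2F proteins, by 0.0034 (95% interval -0.44 to 0.45). All 6 overlapped between the groups.

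The spread between arrays set the precision. The half-width of the 95% interval ranged from 0.39 (Mcm4) to 1.17 (Cdc45) among the 29 genes, with a median of 0.51, against 0.62 over all features. The intervals do not show that any of these genes was unchanged by BRD7116. Leaving out 1 array gave a median difference of the measured genes between -0.21 and -0.08. Without DMSO replicate 1 it was taken relative to the median of all features (0.12).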

How the data were processed

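Cells of 7 samples were profiled on Illumina MouseRef-8 v2.0 arrays, as given in the labels. The authors deposited 1 intensity per probe and array, which the file headers call non-normalized, together with its detection p-value. The authors also deposited processed log2 values, with a median of 7.52 over all arrays together, by a method that is unknown here.

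Background was estimated by neqc (offset 16) from the detection p-values, followed by quantile normalization and log2, in limma 3.58.1 under R 4.3.3. A probe was kept if its detection p was below 0.05 in 2 or more of the 7 arrays (8613 probes). The probe with the highest mean stood for its gene, which gave 6969 features, 6473 of them named. Platform annotation names 1 gene for 23978 probes and none for 1719, and a RefSeq table (GRCm38.p6) changed 0 symbols. Groups were compared over all features with lmFit and eBayes, two-sided and without covariates, and the code was tested on simulated data.

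Genes and lists were chosen with earlier results of these data known. Errors are given for genes detected on at least 5 arrays or with an unadjusted p under 0.05, and for the 6 other pathway genes with the highest mean level. Arrays of equal replicate number were on separate chips and their deviations from the group means correlated at -0.52 and -0.32, so they were not treated as pairs. Arrays on the same chip had 0.52 and 0.32. These mirror the former values because the deviations of the 2 DMSO arrays are opposite by construction. Alternatives varied background correction, scaling, filter, probe choice, weights and blocks, used the authors' values, or left out arrays. With median scaling and without DMSO replicate 1, the median of all features (0.55 and 0.12) was subtracted from the differences given. Calls were made before that subtraction. The number of arrays limits the precision.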

Additional observations from a re-analysis of the deposited data

Results flagged for a closer look

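For 3 of 33 genes examined, a single BRD7116 array was separated from the 4 remaining ones, where chance marks about 1 gene in 20. Mcm5 was low on BRD7116 replicate 2, at 9.71 on the log2 scale, where the nearest of the other 4 was 9.95. Rfc1 was high on BRD7116 replicate 1, at 9.21, where the nearest was 8.46, and Tfdp1 was low on the same array, at 8.64, where the nearest was 8.89. BRD7116 replicate 1 is the treated array of the dim chip, and the part of the chip in these values was not tested. The DMSO array of that chip read 9.18 for Rfc1 and 8.65 for Tfdp1.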

How the results depend on the processing

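The comparison was refitted under 19 alternatives, of which 7 left out 1 array each. Over all features 0 were called, against 1 with the normexp background correction, with detection on all arrays, with no detection filter and with the authors' values, 2 without background correction, and 0 to 610 when 1 array was left out. The 610 arose without DMSO replicate 1, where 2 replication genes (Cdt1 and Mcm3) and 6 of the other pathway genes passed. That fit takes the lone control to have the spread of the BRD7116 arrays. Every other alternative called 0 of both lists, so their counts ranged over 0 to 2 and 0 to 6. The median of the replication genes was -0.21 with chip as a block and -0.21 with the replicate block. It was 0.078 with median scaling, after subtraction of the median of all features (0.55), and -0.21 to -0.083 when 1 array was left out. That of the other pathway genes was -0.11 with detection on all arrays, 0.11 with the mean of each gene's probes, -0.092 without the dim chip and -0.13 to 0.10 when 1 array was left out. Of 589 values of single genes, 519 kept direction and side of the threshold, 2 newly passed and 68 changed sign, and 9 of 33 genes never changed sign. The cause was not tested.

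Values under median scaling and without DMSO replicate 1 are relative to the median of all features (0.55 and 0.12), and their signs were read on that scale. Under median scaling the sign changed for Orc6 (0.18), Cdc6 (-0.51), Mcm4 (0.036), Mcm6 (0.0905), Mcm10 (0.21), Cdc45 (0.15), Pold1 (0.30), Rpa1 (0.071), Fen1 (0.14), Tyms (0.17), Chaf1a (0.042), Chaf1b (0.076), Ccnd3 (0.13), Tipin (0.16) and Gins4 (0.22). With the mean of probes it changed for Mcm6 (0.10), Mcm10 (0.068), Lig1 (-0.058), Tk1 (-0.087) and Ccnd3 (0.14), and with the authors' values for Tfdp1 (-1e-04). With chip as a block, and equally with the replicate block, it changed for Orc6 (0.0078), Mcm7 (-0.34), Rpa3 (-0.0026), Lig1 (-0.014), Tyms (0.10), Cenpa (-0.0035), Gins4 (0.0016) and Tfdp1 (-0.10). Without the dim chip it changed for Cdc6 (-0.49), Mcm3 (-0.26), Pold1 (0.21), Lig1 (-0.25), Tk1 (-0.0896), Cdk2 (-0.12) and Tfdp1 (-0.16), and with array weights for Cdc6 (-0.17) and Cdc45 (0.11). When 1 array was left out, values ranged over -0.22 to 0.27 for Cdc6, -0.31 to 1.40 for Mcm3, -0.016 to 0.15 for Mcm5, -0.16 to 0.37 for Mcm7, -0.21 to 0.059 for Mcm10, -0.56 to 0.18 for Cdc45, -0.36 to 0.22 for Pold1, -0.27 to 0.16 for Lig1, -0.18 to 0.28 for Tk1, -0.17 to 0.30 for Cdk2 and -0.21 to 0.10 for Tfdp1.

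The replicate block, on arrays of separate chips, called 0 features, with 14 higher and 4 lower at an unadjusted p under 0.05. Crossing the numbers joined the arrays within chip A and within chip B, the pairs used above. This alternative, chosen after seeing the data, also called 0, with 78 higher and 77 lower.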
